A study of Homo sapiens with 12 samples.

Results

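The subject is 10 genes of the AP-1 and immediate early response in Huh7 cells, a human hepatocellular carcinoma line, grown without drug, with disulfiram, with thalidomide or with both. They are the FOS family (FOS, FOSB, FOSL1 and FOSL2), the JUN family (JUN, JUNB and JUND), EGR1, IER2 and IER3. They were taken by name, with no measured value in the rule, but with earlier results of these data known. Their counts beside all tested genes are therefore not those of a set chosen blind. They are 10 of the 59191 features in the deposited table. All 10 passed the filter on low values, which asked for a TPM (a transcript abundance scaled to transcript length and library total) of 1 or more in any 3 of the 12 libraries and left 15352 genes for testing. FOSB reached that level in only 1 of the 6 control and thalidomide libraries, so it passed through the disulfiram and combination libraries, where it is high.

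The control libraries carry the name DMSO, the usual solvent for such drugs. The disulfiram libraries are named D10, the thalidomide libraries T20 and the combination libraries D10T20; the unit of those doses and the length of treatment are not given in the labels. Disulfiram is an inhibitor of aldehyde dehydrogenase used against alcohol dependence, and thalidomide binds the ubiquitin ligase substrate receptor cereblon. Each of the 4 groups has 3 libraries of the same line. No label says that the 3 came from separate cultures, and the spread behind every p-value may therefore be technical. The labels' extraction text describes dissociated tumour tissue and droplet single-cell libraries, which does not match a table with 1 column for each cell line library, so the library type and its strandedness were taken as unknown.

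AP-1 is a dimer of basic leucine zipper proteins. JUN proteins pair with each other or with FOS proteins, whereas FOS proteins need a JUN partner, and the dimer binds the sequence TGACTCA. FOS, FOSB, JUN, JUNB, EGR1 and IER2 are immediate early genes: growth factors, stress and calcium or cAMP signals induce them within minutes through factors already in the cell, such as SRF with its ELK partners and CREB. In liver, FOS, JUN and EGR1 are known for their induction after injury and partial hepatectomy.

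Promoter sequences were read for the 8 members in the RefSeq table (GRCh38.p14), which had no entry under the names FOSL1 and IER3. Each is the 250 bases before the RefSeq gene start, 5′ to 3′ on the gene's strand. Gene starts differ between annotations: in GENCODE 29, whose gene coordinates are used elsewhere here, the windows of FOSL2 and JUN lie wholly inside the gene and those of FOS and, by its last base, FOSB end inside it, so for these the window is not all upstream of the gene. FOS, FOSB, FOSL2, EGR1 and JUND hold TGACGT, and all but FOSL2 are shown. TGACGT is the core of the cAMP response element bound by CREB and ATF proteins, and it was searched in either orientation. Capitals mark TGACGT, or ACGTCA on the other strand, and the CArG box, the site of SRF. The windows are FOS at chr14:75278578-75278827 (plus strand), FOSB at chr19:45467746-45467995 (plus), EGR1 at chr5:138465229-138465478 (plus) and JUND at chr19:18281623-18281872 (minus).
FOS: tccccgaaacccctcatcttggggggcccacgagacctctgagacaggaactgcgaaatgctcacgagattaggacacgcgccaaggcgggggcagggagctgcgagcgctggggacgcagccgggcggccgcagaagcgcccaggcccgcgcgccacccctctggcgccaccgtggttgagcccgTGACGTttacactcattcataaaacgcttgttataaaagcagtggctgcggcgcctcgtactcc
FOSB: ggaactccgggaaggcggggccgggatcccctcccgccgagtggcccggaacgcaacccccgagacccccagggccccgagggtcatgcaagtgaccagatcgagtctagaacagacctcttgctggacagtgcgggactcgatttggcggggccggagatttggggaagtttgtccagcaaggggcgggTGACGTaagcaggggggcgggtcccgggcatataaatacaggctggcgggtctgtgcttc
EGR1: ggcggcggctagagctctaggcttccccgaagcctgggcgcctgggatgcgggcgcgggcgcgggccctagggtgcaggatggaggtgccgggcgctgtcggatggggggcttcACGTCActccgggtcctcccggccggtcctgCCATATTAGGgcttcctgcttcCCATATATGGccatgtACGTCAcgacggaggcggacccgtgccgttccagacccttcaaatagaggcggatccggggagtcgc
JUND: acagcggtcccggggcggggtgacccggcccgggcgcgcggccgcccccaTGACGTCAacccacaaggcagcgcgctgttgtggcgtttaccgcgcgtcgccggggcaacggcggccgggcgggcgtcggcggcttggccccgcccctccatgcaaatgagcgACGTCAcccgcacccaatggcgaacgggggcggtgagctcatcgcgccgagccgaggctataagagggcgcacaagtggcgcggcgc

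TGACGT lay 64 to 59 bases before the start in FOS, 60 to 55 in FOSB and 67 to 62 in EGR1, and in FOSL2 66 to 61 before the RefSeq start. EGR1 had another at 136 to 131. In JUND it lay at 87 to 82, and the palindrome TGACGTCA, which holds TGACGT on both strands, lay at 200 to 193. TGACGT was in 7.1% of all 35116 promoter windows of this length and TGACGTCA in 1.65%. CArG boxes were in 1.16% of windows and, among the windows of the 8 members, only in that of EGR1. There they lay at 105 to 96 and 83 to 74 bases before the start. Sequence upstream of the windows was not searched, so a site farther upstream, in FOS or any other member, would have been missed. TGACTCA was in 4.2% of windows and in none of the 8. TATAAA, the TATA box, was in 10.7% of windows and in FOS, FOSB and JUNB. The EGR site GCGNGGGCG (8.41% of windows), the STAT site TTCNNNGAA (6.57%) and the metal response core TGCACNC (9.87%) were each in EGR1 alone. Its variant TGCGCNC (16.8%) was in FOSL2, JUNB and JUND, and the heat shock element GAANNTTC (5.78%) in JUN. All motifs were searched on both strands and were chosen after the values were seen; a match is a string of letters, not a measured site.

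The number of genes at a TPM of at least 1 moved with treatment: it was 13693 to 14097 in control, 13711 to 14207 in thalidomide, 14206 to 14790 in disulfiram and 14681 to 15038 in the combination. The mitochondrial genome's protein-coding genes held from 8.24% to 11.1% of a library's TPM, and the 2 lowest shares (8.24% and 8.56%) were in combination libraries. The part of either in the members' differences was not tested. Read depth is not given in the table, since each column is scaled to the same total. All 10 hepatocyte markers (ALB, AFP and others) had a mean TPM of at least 1 in the control libraries, where their TPM summed to between 4327 and 6870. Of other cell types' markers, the leukocyte genes PTPRC, CD3E and NKG7 stayed at or below a TPM of 0.62, and CD14 and LYZ were detected. Libraries also differed in base composition. The Spearman correlation of a library's deviation from its group with transcript GC content, across genes, was highest in the second disulfiram (0.60) and second combination library (0.66), with 0.48 in the first thalidomide library and -0.59 in the first combination and -0.49 in the first disulfiram library. All 10 members lie above the 48.8% median transcript GC of the tested genes, from 52.6% in FOS to 69.7% in JUND. The members' differences from control are given also without the 2 highest of these libraries. The libraries left in those groups were at -0.49 and -0.30 in disulfiram and at -0.59 and -0.37 in the combination. Since deviations were taken within groups, that removal was not shown to even out base composition between groups.

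In control cells the genes fell into an abundant and a scarce set. TPM is scaled to transcript length, and levels were set against each other on that basis. With the library type unknown, whether this scaling suits these libraries could not be checked. The order of genes and the family shares below depend on it. JUND averaged 138.5 ± 12.6 TPM (SD, n = 3) and IER3 133.5 ± 8.53, and these did not differ beyond their spread. JUNB followed at 109.95 ± 4.43, IER2 at 85.8 ± 7.35 and JUN at 47.7 ± 11.1, each set of 3 libraries clear of its neighbours in the order. FOS at 6.48 ± 2.36, EGR1 at 5.74 ± 2.56 and FOSL2 at 4.64 ± 0.95 overlapped as neighbours in the order. FOSL1 at 1.90 ± 0.89 and FOSB at 1.21 ± 0.60 were the scarcest and overlapped. All 3 JUN family genes were thus in the abundant set and all 4 FOS family genes in the scarce set.

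**Figure D1:**
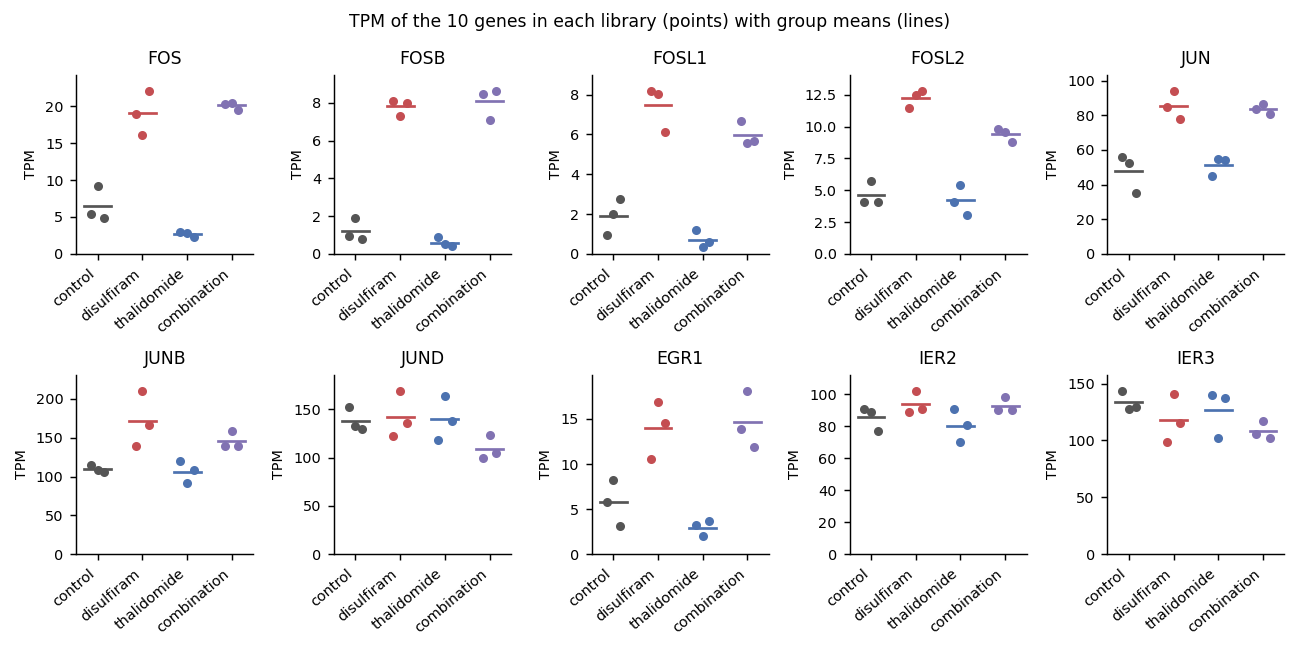
TPM of each of the 10 genes in the 12 libraries, grouped as control, disulfiram, thalidomide and combination. Points are libraries and short lines are group means. The disulfiram and combination libraries of FOS, FOSB, FOSL1, FOSL2, JUN, JUNB and EGR1 sit above all 3 control libraries, while IER2 overlaps between groups.

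Disulfiram was compared with control to ask what the drug alone did to these genes. It raised the whole FOS family, JUN, JUNB and EGR1, and the folds were largest for FOSB and FOSL1, the scarcest genes. Mean TPM was 6.43 times the control mean for FOSB, 3.92 times for FOSL1, 2.95 times for FOS and 2.64 times for FOSL2. JUND, IER2 and IER3, all abundant in control cells, did not pass the test. Of the 10 members 7 were higher and 0 were lower, where 8.73% of all tested genes were higher and 4.52% were lower; FOSB, which had to differ to be tested, is 1 of the 7. The median difference over the 10 members was 1.03 on the log2(TPM + 1) scale, and the median over all tested genes was 0.09. On that scale the added 1 shrinks the differences of scarce genes, so that of FOSB was 2.68 with 0.1 added in place of 1.

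FOSB codes for a FOS family protein with a transactivation domain and, in nerve cells, a long-lived shortened form. It lies at chr19:45467995-45475179 (hg38, plus strand). Its TPM was 0.93, 1.9 and 0.81 in the control libraries and 8.11, 7.3 and 8.01 in the disulfiram libraries. Every disulfiram library was far above the highest control library. The log2 difference was 2.02 ± 0.19 (SE; 95% interval 1.62 to 2.43; limma, adjusted p = 8.19e-05). Without any filter on low values FOSB stood at 2.02 with an adjusted p of 0.000665. FOSB lies within the span of ERCC1, a DNA repair gene on the other strand, with 0 exonic bases in common; ERCC1 had 69.1 TPM in control and 79.7 in disulfiram, a log2 difference of 0.20 (adjusted p = 0.178).

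FOS (chr14:75278774-75282230, plus strand), the founding member, had 5.38, 9.19 and 4.86 TPM in control and 19, 16.17 and 22.12 in disulfiram. The control libraries differed among themselves, with the second the highest, yet all 3 disulfiram libraries lay above it. The log2 difference was 1.46 ± 0.19 (95% interval 1.05 to 1.88; adjusted p = 0.00071). FOSL1 (chr11:65892049-65900573, minus strand) codes for FRA1, which lacks the transactivation domain of FOS. It had 0.96, 2.01 and 2.74 TPM in control and 8.19, 8.04 and 6.13 in disulfiram, with no overlap. Its log2 difference was 1.58 ± 0.24 (adjusted p = 0.00175). FOSL2 (chr2:28392448-28417312, plus strand), which codes for FRA2, had 4.08, 5.74 and 4.1 TPM in control and 11.45, 12.47 and 12.81 in disulfiram. The 3 disulfiram libraries of FOSL2 were close together and clear of the controls, with a log2 difference of 1.24 ± 0.17 (adjusted p = 0.00091).

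In the JUN family JUN and JUNB rose and JUND did not pass the test. JUN (chr1:58780788-58784327, minus strand), whose protein is activated by JNK, had 55.68, 52.44 and 34.99 TPM in control and 84.67, 94.06 and 77.54 in disulfiram. The third control library was the lowest of the 12 for JUN, and the groups did not overlap. The log2 difference of JUN was 0.85 ± 0.15 (adjusted p = 0.00425). JUNB (chr19:12791496-12793315, plus strand), often a weaker activator than JUN, had 114.94, 108.44 and 106.47 TPM in control and 139.4, 210.09 and 166.51 in disulfiram. The second disulfiram library stood highest and set most of the spread. The log2 difference of JUNB was 0.62 ± 0.14 (adjusted p = 0.012), 0.47 with the second disulfiram and combination libraries removed (adjusted p = 0.0254), and 0.52 after median-of-ratios scaling between libraries, which did not pass (adjusted p = 0.0729). HOOK2, on the other strand, shares 259 of the 1820 exonic bases of JUNB; it had 29.9 TPM in control and 28.2 in disulfiram.

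JUND (chr19:18279760-18281622, minus strand), the family member that is present in resting cells, had 152.86, 133.11 and 129.47 TPM in control and 122.69, 169 and 136.22 in disulfiram. The disulfiram libraries spanned the whole control range. The log2 difference of JUND was 0.03 ± 0.14 (adjusted p = 0.910).

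EGR1 (chr5:138465490-138469315, plus strand), a zinc finger factor outside AP-1, had 5.79, 8.28 and 3.16 TPM in control and 10.55, 16.86 and 14.52 in disulfiram. The groups did not overlap, although the highest control and the lowest disulfiram library were near each other. The log2 difference was 1.20 ± 0.28 (adjusted p = 0.0164). This call rested on single libraries: adjusted p was 0.0548 without the third control library (log2 difference 0.89) and 0.0577 without the third disulfiram library (1.17).

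IER2 (chr19:13150415-13154908, plus strand), a small nuclear protein, had 90.91, 89.06 and 77.35 TPM in control and 89.17, 102.06 and 91.1 in disulfiram, a log2 difference of 0.13 ± 0.10 (adjusted p = 0.446). IER3 (chr6:30743199-30744554, minus strand), a stress-induced regulator of cell survival, had 143.31, 127.59 and 129.69 TPM in control and 98.65, 140.49 and 115.45 in disulfiram, a difference of -0.19 ± 0.14 (adjusted p = 0.425). Both genes overlapped between the groups. Both also share exonic bases with an antisense gene, AC011446.2 (946 of 3072 bases of IER2) and IER3-AS1 (359 of 1356 bases of IER3), whose TPM reached at most 3.17 and 4.33.

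The second disulfiram library, whose deviation correlated with transcript GC content at 0.60, was the highest of its group for JUN, JUNB, JUND, EGR1, IER2 and IER3. It was the lowest of its group for FOS and FOSB. After a correction for transcript GC content, chosen after seeing the data, the log2 differences were 1.94 for FOSB, 1.49 for FOSL1, 1.38 for FOS, 1.16 for FOSL2, 1.12 for EGR1, 0.76 for JUN and 0.54 for JUNB, and all 7 passed the test. With the second disulfiram and second combination libraries removed, also chosen after seeing the data, they were 2.07 for FOSB, 1.57 for FOS, 1.53 for FOSL1, 1.23 for FOSL2, 1.06 for EGR1 and 0.78 for JUN, and the same 7 genes, JUNB included, passed.

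**Figure D2:**
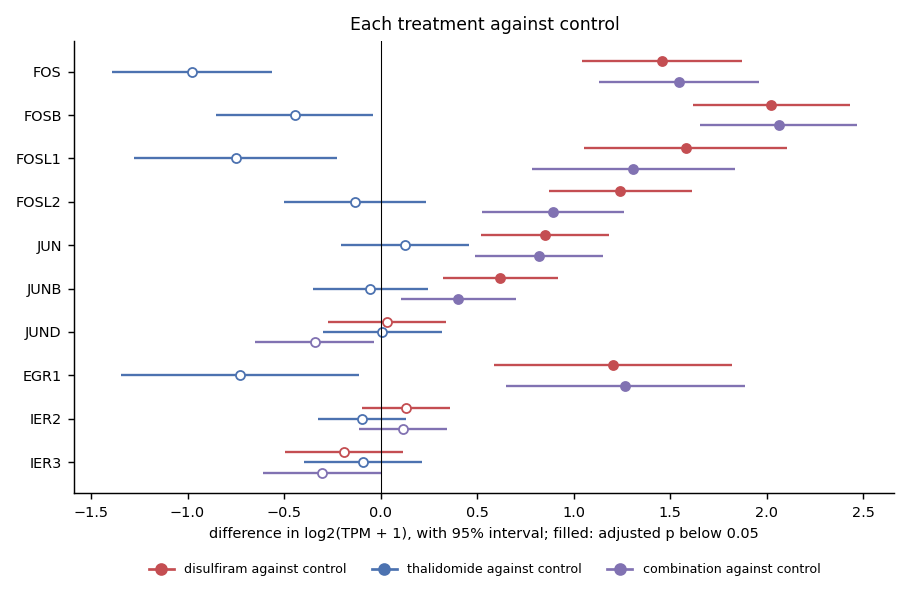
Log2 difference in TPM + 1 from control (points) with 95% intervals (bars) for the 10 genes under disulfiram, thalidomide and the combination. The disulfiram points run from 2.02 for FOSB down to -0.19 for IER3, and the thalidomide points lie at or below 0.13.

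The makeup of the AP-1 transcripts also differed between the libraries of the 2 groups. The summed TPM of the 4 FOS family genes was 14.2 ± 4.03 (SD, n = 3) in control, from 11.35 to 18.84, and 46.6 ± 2.55 in disulfiram, from 43.98 to 49.07. For the 3 JUN family genes the sum was 296 ± 26.4 in control and 400 ± 65.4 in disulfiram. FOS family genes thus made up 4.61% ± 1.33 of the summed TPM of both families in control and 10.6% ± 1.83 in disulfiram, with no overlap. Within the FOS family the share of FOSB went from 8.25% to 16.8% and that of FOSL2 from 33.1% to 26.3%. Within the JUN family the share of JUND went from 46.8% to 35.6% and that of JUN from 16.0% to 21.6%. These shares describe the libraries and were not tested, since they are built from the members' own values.

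**Figure D3:**
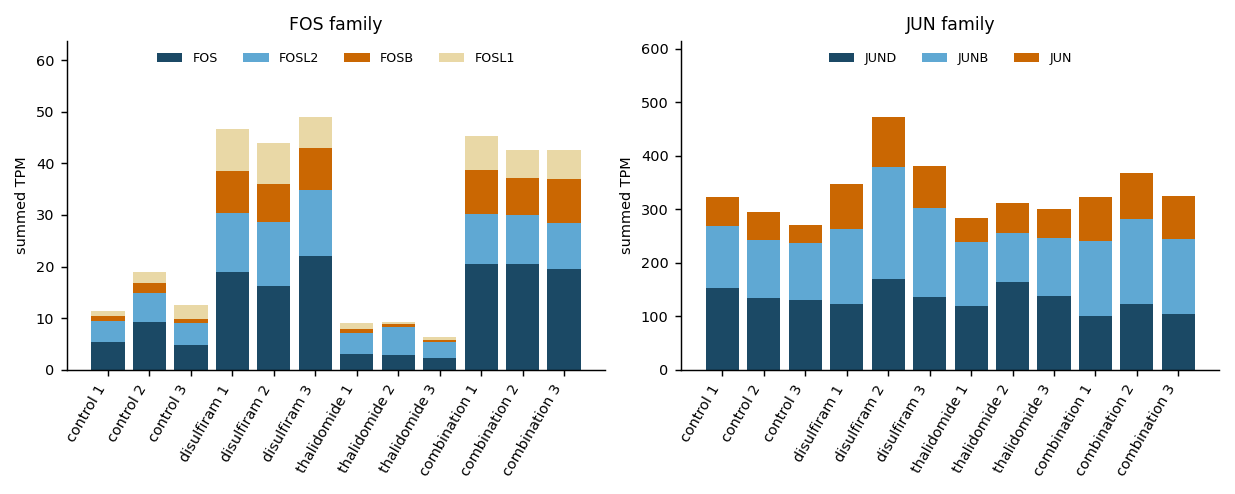
Summed TPM of the 4 FOS family genes and of the 3 JUN family genes in each library, as bars stacked by gene. FOS family sums lie between 43.98 and 49.07 in disulfiram and between 6.31 and 9.14 in thalidomide, on either side of the control range of 11.35 to 18.84.

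Thalidomide was compared with control to ask for its effect alone. No member passed the test, and 0% of all tested genes did. At an unadjusted p under 0.05 in limma there were 4 of 10 members and 873 of all 15352 tested genes. FOS had 2.96, 2.86 and 2.26 TPM in thalidomide, all below the lowest control library. Its log2 difference was -0.98 ± 0.19 (95% interval -1.39 to -0.56; adjusted p = 0.370). FOS was the only member whose thalidomide and control libraries did not overlap, against 10.2% of all tested genes. The second control library was the highest control for FOS, FOSB, FOSL2 and EGR1, and without it the FOS difference was -0.73. Over 15 alternatives the adjusted p of FOS ranged from 0.101 to 0.885.

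The other scarce genes also had lower means in thalidomide, without passing. FOSL1 had 1.19, 0.34 and 0.58 TPM in thalidomide, a log2 difference of -0.75 (adjusted p = 0.739). EGR1 had 3.21, 1.96 and 3.63 TPM, a difference of -0.73 (adjusted p = 0.803), and FOSB 0.87, 0.51 and 0.42 TPM, a difference of -0.45 (adjusted p = 0.845). FOSL2 at -0.13, JUN at 0.13, JUNB at -0.05, JUND at 0.01, IER2 at -0.09 and IER3 at -0.09 were near 0, with all libraries within overlapping ranges. The FOS family sum was 8.19 ± 1.63 TPM in thalidomide and the JUN family sum 298 ± 13.6. FOS family genes made up 2.68% ± 0.55 of both families' TPM there, and FOSL2 alone 50.9% of the FOS family.

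The combination was compared with the same control libraries, so its differences are not independent of those of disulfiram. FOS, FOSB, FOSL1, FOSL2, JUN, JUNB and EGR1 were higher. They were 7 of 10 members, with 0 lower, where 18.4% of all tested genes were higher and 6.70% lower. The median difference was 0.86 over the members and 0.20 over all tested genes, a general upward shift against which the smaller members' differences are to be read. In 9 of 10 members, all but IER2, the combination and control libraries did not overlap, against 46.0% of all tested genes.

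FOSB had 8.48, 7.09 and 8.63 TPM in the combination, a log2 difference from control of 2.06 ± 0.19 (adjusted p = 7.68e-05; 0.000739 without any filter on low values, which FOSB passed only through the groups where it is high). FOS had 20.39, 20.47 and 19.58, 3 nearly equal libraries, with a difference of 1.54 ± 0.19 (adjusted p = 0.000563). FOSL1 had 6.67, 5.57 and 5.65, a difference of 1.31 ± 0.24 (adjusted p = 0.00455). In each of these 3 genes every combination library lay well above the highest control library. EGR1 had 13.88, 18.09 and 11.91, a difference of 1.27 ± 0.28 (adjusted p = 0.0102), and FOSL2 had 9.84, 9.55 and 8.8, a difference of 0.89 ± 0.17 (adjusted p = 0.00493). JUN had 83.32, 86.67 and 80.51, a difference of 0.82 ± 0.15 (adjusted p = 0.00461).

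With the second disulfiram and second combination libraries removed the differences were 2.14 for FOSB, 1.53 for FOS, 1.35 for FOSL1, 1.11 for EGR1, 0.88 for FOSL2, 0.80 for JUN and 0.34 for JUNB, and all 7 passed.

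JUNB and JUND were at the edge of the test, in opposite directions. JUNB had 139.85, 158.08 and 139.38 TPM in the combination and a log2 difference of 0.40 ± 0.14 (adjusted p = 0.0499). That call was lost in 10 of 15 alternatives, among them the removal of any 1 control or combination library (adjusted p from 0.0889 to 0.123) and median-of-ratios scaling, where the difference was 0.20 (adjusted p = 0.411). JUND had 99.99, 123.05 and 104.85 TPM, each below the lowest control library, and a difference of -0.34 ± 0.14 that did not pass (adjusted p = 0.0912). It passed in only 2 of 15 alternatives. These were median-of-ratios scaling, at -0.54 (adjusted p = 0.0315), and the removal of the second disulfiram and combination libraries, at -0.43 (adjusted p = 0.0268). IER2 had 90.11, 98.63 and 90.05 TPM, a difference of 0.12 (adjusted p = 0.409). IER3 had 105.33, 117.21 and 101.98, each below the lowest control library, and a difference of -0.30 ± 0.14 (adjusted p = 0.124).

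Median-of-ratios scaling also changed the balance of calls over all genes. In disulfiram against control it gave 768 higher and 969 lower genes, in place of 1340 and 694. In the combination against control it gave 1351 higher and 1877 lower, in place of 2823 and 1029. FOS, FOSB, FOSL1, FOSL2, JUN and EGR1 were higher, and passed, in both comparisons under both scalings.

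Adding thalidomide to disulfiram was examined in the direct comparison of the combination with disulfiram. None of the 10 members passed the test, and 0.00651% of all tested genes, 1 gene, did. For FOS the 95% interval of the difference ran from -0.33 to 0.50 around 0.08; for FOSB the interval ran from -0.37 to 0.45 around 0.04. For EGR1 it ran from -0.55 to 0.68 and for FOSL1 from -0.80 to 0.25, so differences of those sizes were not detectable here. FOSL2 was the only member without overlap between the 2 groups, where 16.2% of all tested genes had none; its difference was -0.35 (95% interval -0.72 to 0.02; adjusted p = 0.303). JUND had the lowest estimate, -0.37 (-0.68 to -0.07; adjusted p = 0.265).

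The interaction asks whether the effect of the combination departs from the sum of both single effects on the log2 scale. No member passed, nor did any of all tested genes (0%). At an unadjusted p under 0.05 in limma there were 1 of 10 members and 1580 of all 15352 tested genes, a similar share. That member was FOS, whose interaction was 1.06 (95% interval 0.48 to 1.65; adjusted p = 0.466): its mean was 2.69 TPM in thalidomide and 6.48 in control, and 20.15 in the combination and 19.1 in disulfiram. The interval for EGR1 ran from -0.08 to 1.67 around 0.79, that for FOSB from -0.09 to 1.06 around 0.48, and that for JUND from -0.82 to 0.05 around -0.38.

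**Figure D4:**
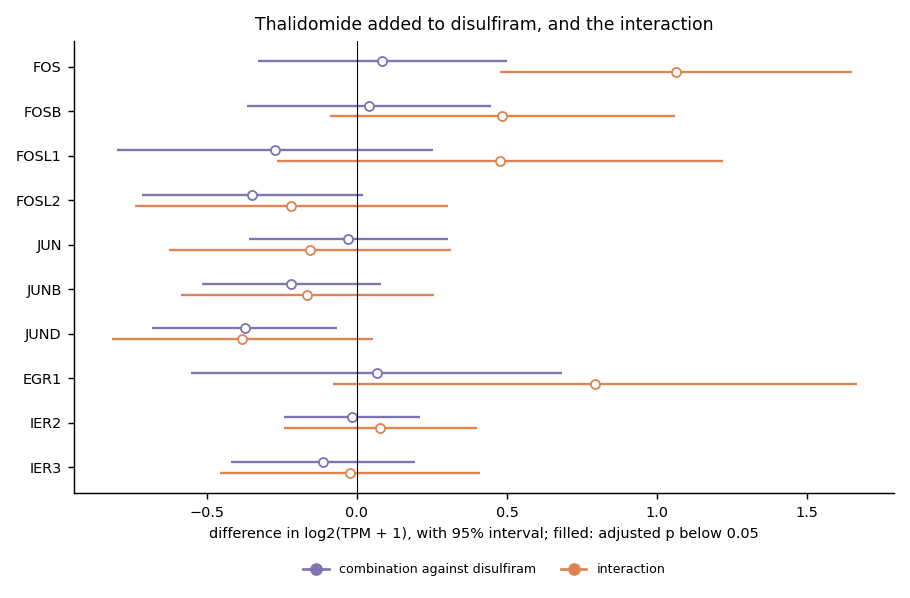
Log2 difference between combination and disulfiram and the interaction for the 10 genes, as points with 95% intervals. FOS sits at 0.08 in the direct comparison and at 1.06 in the interaction, and no gene passed the test in either.

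Against thalidomide, both disulfiram groups were higher in the same 7 genes. In disulfiram against thalidomide 7 of 10 members were higher, against 11.9% of all tested genes, with log2 differences of 2.47 for FOSB, 2.44 for FOS, 2.33 for FOSL1, 1.93 for EGR1, 1.37 for FOSL2, 0.72 for JUN and 0.68 for JUNB. In the combination against thalidomide 7 of 10 were higher, against 25.0% of all tested genes. The differences there were 2.52 for FOS, 2.51 for FOSB, 2.06 for FOSL1, 2.00 for EGR1, 1.02 for FOSL2, 0.69 for JUN and 0.46 for JUNB. FOSB, which passed the filter on low values only through the disulfiram and combination libraries, is counted in both totals. These comparisons share libraries with those above and add no independent evidence. The JUNB call against thalidomide was lost after median-of-ratios scaling in disulfiram (0.53, adjusted p = 0.0553) and in 6 of 15 alternatives in the combination. After median-of-ratios scaling all tested genes split into 1030 higher and 1240 lower in the former (1826 higher before scaling) and 1811 higher and 2254 lower in the latter (3834 higher before scaling).

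In the combination the levels of the members had a strict order, with no overlap between most neighbours: JUNB at 145.8 ± 10.7 TPM (SD, n = 3), then JUND at 109.3 ± 12.2 and IER3 at 108.2 ± 8.00, which overlapped, then IER2 at 92.9 ± 4.94, JUN at 83.5 ± 3.08, FOS at 20.15 ± 0.49, EGR1 at 14.6 ± 3.16, FOSL2 at 9.40 ± 0.54, FOSB at 8.07 ± 0.85 and FOSL1 at 5.96 ± 0.61. JUNB was ahead of JUND here and in disulfiram, where the 2 overlapped, and behind it in control. FOSB passed from the last place in control to above FOSL1. FOS family genes made up 11.4% ± 0.97 of both families' TPM, with a FOS family sum of 43.6 ± 1.57 and a JUN family sum of 339 ± 25.3.

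Over the 12 libraries the scarce genes had high correlations, in which the points share their treatment groups. The Pearson correlation of log2(TPM + 1) was 0.98 between FOS and FOSB, 0.94 between FOS and EGR1 and 0.94 between FOS and FOSL1. Of each library's deviation from its group mean, the correlation was 0.84 for FOS and FOSB, 0.43 for FOS and EGR1 and -0.03 for FOS and FOSL1. JUNB and IER3 had a correlation of 0.00 over the 12 libraries and 0.95 within groups, and IER2 and IER3 had 0.23 and 0.82. The second disulfiram and second combination libraries were the highest of their groups for JUNB, IER2 and IER3 alike, and the part of base composition in these values was not tested.

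Outside the members, the 5 genes most like FOSB over the 12 libraries, of 9680 candidates, were HBEGF (r = 0.994), TRIB1 (0.989), AMPD3 (0.988), IDS (0.985) and DUSP10 (0.980). HBEGF codes for a membrane-bound ligand of the EGF receptor. It had 1.33, 2.1 and 1.59 TPM in control, 8.12, 6.33 and 7.48 in disulfiram, 1.28, 0.88 and 1.05 in thalidomide and 8.13, 5.82 and 8.5 in the combination. As in FOSB, the control and thalidomide libraries were low and the other 6 high. IDS, a lysosomal sulfatase, went from 9.56 ± 1.35 TPM in control to 23.1 ± 1.65 in disulfiram. DUSP10, a phosphatase of p38 and JNK, went from 13.5 ± 0.99 to 22.9 ± 1.96.

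The rest of the pathway was followed through 4 lists of known genes, also chosen with earlier results of these data known. Of 15 other AP-1 and partner leucine zipper genes 13 were tested. In disulfiram against control 3 were higher and 1 lower, with a median log2 difference of 0.34, beside 8.73% higher and 4.52% lower of all tested genes. ATF3, a stress-induced JUN partner, rose from 17.5 to 43.5 TPM, a difference of 1.27 ± 0.18. MAFF, a small MAF protein, rose by 0.78 ± 0.16. JDP2, a repressor of AP-1, fell from 8.96 to 3.51 TPM, a difference of -1.16 ± 0.16. In the combination the list had 3 higher and 1 lower (median 0.30), shares near the 18.4% and 6.70% of all tested genes, with ATF3 at 1.29, JDP2 at -1.29 and MAFF at 0.43, which did not pass (adjusted p = 0.0659).

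Of 29 other immediate early genes 24 were tested, and 12 were higher and 2 lower in disulfiram (median 0.51), with 12 and 2 in the combination (median 0.34). Of all tested genes 8.73% were higher and 4.52% lower in disulfiram, and 18.4% and 6.70% in the combination. KLF4, a zinc finger factor, rose from 7.25 to 18.6 TPM (1.28 ± 0.21). TRIB1, a pseudokinase, rose from 12.9 to 24.0 TPM (0.85 ± 0.09), and IER5 from 5.84 to 11.3 (0.84 ± 0.11). CCN2, a matricellular protein also known as a target of YAP, fell from 258 to 108 TPM (-1.27 ± 0.20). In the combination these genes stood at 1.23, 0.73, 0.72 and -1.28, and all 4 passed. The scarce EGR3 was below the filter: it had 0, 0.03 and 0.2 TPM in control, 0.51, 0.81 and 0.65 in disulfiram, 0.02, 0.01 and 0.01 in thalidomide and 0.66, 0.65 and 0.72 in the combination.

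Kinases and transcription factors upstream of these genes passed the test about as often as all genes. Of 28 listed 26 were tested, and 3 were higher and 0 lower in disulfiram (median 0.13), with 5 higher and 2 lower in the combination (median 0.25), where all tested genes had 8.73% and 18.4% higher. SRF, which binds the CArG box, went from 12.1 to 16.9 TPM, a difference of 0.45 ± 0.11 (adjusted p = 0.0205). MAPK7 was 0.37 and MAP2K1 0.30 higher. None of these 3 calls held in every alternative, with SRF passing in 10 of 15, MAP2K1 in 9 and MAPK7 in 7. In the combination MAP2K1 passed at 0.35, while SRF at 0.28 (adjusted p = 0.0847) and MAPK7 at 0.16 (adjusted p = 0.236) did not. Transcript levels do not measure the activity of kinases, which is set by phosphorylation.

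Of 20 genes known as AP-1 targets 14 were tested, and 7 were higher and 1 lower in disulfiram (median 0.51), with 5 higher and 1 lower in the combination (median 0.39). The shares of all tested genes were 8.73% higher and 4.52% lower in disulfiram and 18.4% and 6.70% in the combination, so the 1 lower gene is near the background. HBEGF rose by 1.64 ± 0.17. LAMB3, a chain of an epithelial laminin, rose from 2.64 to 9.54 TPM (1.53 ± 0.13). TIMP1, a metalloproteinase inhibitor, rose from 28.4 to 65.2 TPM (1.21 ± 0.20). The lower gene was CCND1, at -0.75. In the combination HBEGF stood at 1.66, LAMB3 at 1.16 and TIMP1 at 1.06. In thalidomide no gene of the 4 lists passed. MMP1 and MMP10, collagenase and stromelysin genes, were below the filter and not tested. Both were listed at 0 in all 3 control libraries. In disulfiram MMP1 had 0.33, 0.3 and 0.33 TPM and MMP10 0.47, 0.35 and 0.14. MMP3 (0.06, 0 and 0 TPM in disulfiram) and MMP9 (0, 0.05 and 0), of the same list and also below the filter, stayed near 0.

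**Figure D5:**
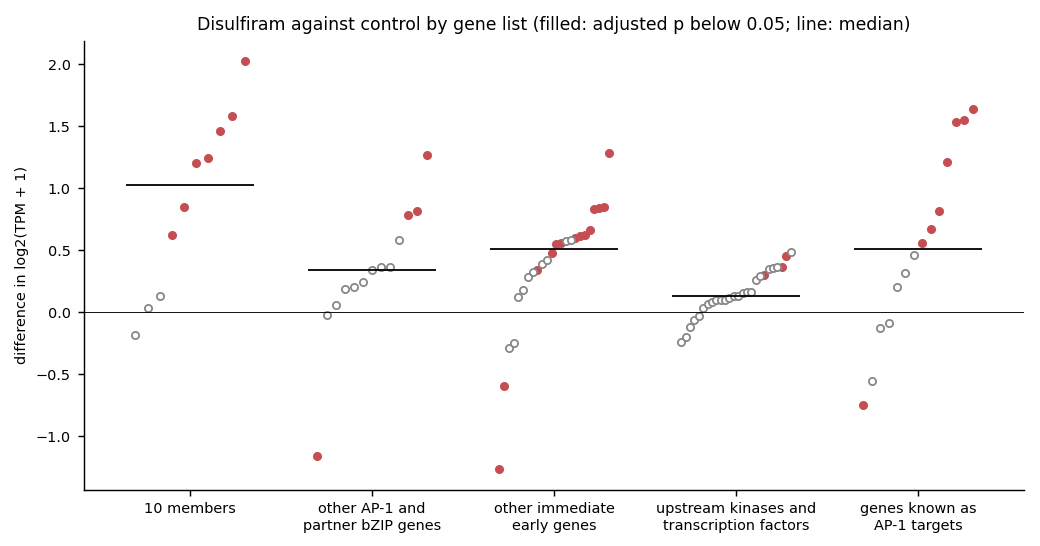
Log2 difference in TPM + 1 for each tested gene of the members and the 4 lists, in disulfiram against control. Points are genes and lines are medians. The members' median is 1.03 and that of the upstream genes 0.13.

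Markers of other cell types were read beside these differences. The summed TPM of the 4 endothelial markers was 0.79 to 1.55 in control and 3.52 to 7.42 in disulfiram, most of it from PECAM1 (mean 1.11 TPM in control and 5.21 in disulfiram, log2 difference 1.52, adjusted p = 0.00248); CDH5, VWF and KDR were near 0. In the combination PECAM1 also passed, at 1.31 (adjusted p = 0.00494). The summed fibroblast markers were 70.96 to 83.48 in control, 56.19 to 70.99 in disulfiram and 60.08 to 85.59 in the combination; in disulfiram LUM had the lower mean (34.3 and 19.4 TPM) while COL1A1 (9.29 and 10.7) and COL1A2 (32.8 and 34.2) did not. The hepatocyte markers summed to 4112 to 4161 in disulfiram, below the control range, and of the 10 only TTR passed, at -0.85 (adjusted p = 0.0196), as it did in the combination at -0.99, where the sum was 3704 to 4823. Against thalidomide 5 of the 10 were lower in disulfiram and 6 in the combination. Over all 15352 tested genes, with 0.1 added to TPM in place of 1, 789 were lower in disulfiram against thalidomide. In the combination against thalidomide 1110 were. The leukocyte markers summed to 104.5 to 174.1 in control, 64.43 to 131 in disulfiram and 87.3 to 96.31 in the combination. Their main contributor CD14 had 131.8 TPM in control and 81.9 in disulfiram, a difference of -0.73 that did not pass (adjusted p = 0.0928), while the scarcer LYZ rose by 1.05 in disulfiram (adjusted p = 0.0213) and 0.84 in the combination (adjusted p = 0.0372). The part of these genes in the members' differences was not tested. In bulk libraries a change in the number of expressing cells and in RNA per cell cannot be told apart.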

How the data were processed

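Expression in 12 Huh7 libraries was deposited by the authors as TPM, 1 table for all libraries. Per the submitters' processing notes, HISAT2 2.0, StringTie 1.3.0 and hg38 were used; depth and strand setting were not given in the sources used here. Genes were matched by Ensembl identifier to GENCODE 29 (58611 of 58884 identifiers; 10 of 10 members). Genes that reached a TPM of 1 in 3 or more of the 12 libraries were tested on log2(TPM + 1) with limma 3.58.1 (R 4.3.3; empirical Bayes with trend, two-sided). All 4 groups entered 1 fit, and p-values were adjusted by Benjamini-Hochberg over the 15352 genes tested, threshold 0.05. Some listed genes are counted but not reported here by name. No count test was run, since TPM keep no depth. The procedure was tested on simulated data. Changes were placed there only in more abundant genes, so recovery at the level of the scarce members was not tested.

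The members and lists were chosen with earlier results of these data known. All members were named; from each list, up to 4 genes with the largest disulfiram difference past the threshold and a mean TPM of at least 5 in a compared group; and the 5 genes most correlated with the member that differed most. EGR3, MMP1, MMP3, MMP9, MMP10, CCND1, PECAM1, LYZ, CD14, TTR, LUM, COL1A1, COL1A2 and the promoter motifs were singled out after their values were seen. Alternatives were another pseudocount (0.1 or 5), no filter or a mean TPM of at least 5, median-of-ratios scaling, only the compared groups, a replicate block, each library left out, and 2 chosen after seeing the data: a GC correction, and the second disulfiram and combination libraries removed.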

Additional observations from a re-analysis of the deposited data

How the results depend on the processing

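Of 1504 values of named genes under the alternatives 41 lost the call and 8 gained it. Where the main or the alternative value passed, 0 changed sign. Values that passed in neither were not counted as reversed, and some changed sign, such as JUND in disulfiram against control (0.03, and -0.09 at its lowest). The count of members past the threshold stayed between 5 and 7 in disulfiram against control and between 5 and 8 in the combination against control; it was 0 throughout for thalidomide against control, the combination against disulfiram and the interaction. FOSB and FOSL1 were too scarce to be tested with a mean TPM of at least 5, which lowered the counts by construction. EGR1 in disulfiram also lost its call with no filter (adjusted p = 0.0515). JUNB in the combination gave 0.110 with no filter and 0.0707 under the replicate block, and IER3 there passed with only the compared groups (0.0424). The causes were not tested. Same-numbered libraries did not deviate together throughout (r from -0.108 to -0.059 between control and disulfiram; 0.211, 0.369 and 0.030 between disulfiram and combination, where the first and second libraries were each other's best match), so the numbers were not taken as pairs; the replicate block gave 7 members in disulfiram and 6 in the combination against control. Over all genes the counts ranged from 1173 to 2918 in disulfiram against control and from 1426 to 5850 in the combination. Read depth is unknown, so no counting error could be set beside the scarce genes.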
